A study of Mus musculus with 6 samples.

Results

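The SOCS family of cytokine signal suppressors consists of 8 genes, Socs1 to Socs7 and Cish. They were found by symbol among the 52550 genes of the deposited count table, where each occurred with its own identifier, and all 8 had enough reads to be tested. RNA was sequenced from C57BL/6 mouse macrophages grown out of bone marrow over 7 days in 25 ng/ml M-CSF, the colony-stimulating factor that drives the macrophage lineage. Cells that received culture medium taken from apoptotic chondrocytes (AC CM, n = 3) were compared with cells that received it from normal chondrocytes (C CM, n = 3). All 6 samples therefore share M-CSF and some chondrocyte medium. The labels give no time of exposure, no agent that made the chondrocytes apoptotic and no group without chondrocyte medium. Whether replicates are different mice or dishes is not said in the labels either, so the p-values reflect variation among these libraries alone, and this variation could be technical.

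Gene counts summed to between 70802852 and 80105872 in AC CM libraries and between 65630784 and 68852308 in C CM libraries. The summed level of 12 macrophage markers was high in all libraries, at 22800 to 23600 CPM (counts scaled to a common library size) in AC CM and 25300 to 26700 CPM in C CM. Marker sums of other blood cells differed between the groups. The 12 neutrophil and granulocyte precursor markers summed to 188 to 204 CPM in AC CM and 862 to 1010 CPM in C CM. The 10 monocyte markers summed to 1220 to 1280 CPM in AC CM and 1800 to 2050 CPM in C CM. Fn1 was the largest part of the monocyte sum (853 CPM in AC CM, 951 CPM in C CM) and did not pass the test used below. Of the 10 monocyte markers, 6 were called lower in AC CM and 4 did not pass. The 10 dendritic cell markers summed to 15.3 to 17.3 CPM in AC CM and 60.0 to 72.3 CPM in C CM. Most of this was Itgax, which averaged 12.7 CPM in AC CM and 48.5 CPM in C CM. Of 9 dendritic cell markers tested, 8 were called lower in AC CM. The 5 mast cell and basophil markers, of which Fcer1a was at 0 in every library, summed to 3.63 to 4.74 CPM in AC CM and 14.4 to 17.0 CPM in C CM. That sum was mostly Kit, which averaged 2.98 CPM in AC CM and 13.1 CPM in C CM. In bulk RNA, fewer cells of a type and less RNA per cell cannot be told apart. Liver transcripts varied between libraries: Alb, albumin, stood at 38.1, 469 and 971 CPM in AC CM replicates 1, 2 and 3 and at 30.1, 1.32 and 0.254 CPM in C CM replicates 1, 2 and 3. The sum over 10 hepatocyte genes, 352, 935 and 1760 CPM in AC CM and 516 to 596 CPM in C CM, does not show this in C CM because it is there nearly all Trf, transferrin (304, 349 and 406 CPM in AC CM, 552, 534 and 515 CPM in C CM), which fell. Since Alb was highest in AC CM replicates 2 and 3, each result was also computed without that pair.

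SOCS proteins are negative feedback regulators of cytokine receptors. Many cytokines signal through receptor-bound Janus kinases (JAKs), which phosphorylate STAT transcription factors, and STATs in turn switch on several SOCS genes. Each SOCS protein has a central SH2 domain that binds phosphorylated tyrosines and a carboxy-terminal SOCS box that recruits elongins B and C, Cul5 and a RING protein, a ubiquitin ligase that marks bound proteins for degradation. SOCS1 and SOCS3 also carry a kinase inhibitory region that blocks JAKs directly. In macrophages SOCS1 is known as a brake on interferon signalling and SOCS3 as a brake on IL-6 signalling through the receptor subunit gp130.

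Promoter sequence is shown for the 2 family members that differed most from C CM among those whose groups did not overlap, since both are known to be induced through STATs. The sequences are from RefSeq on GRCm38.p6, read 5′ to 3′ on the gene's strand and ending at or before the last base upstream of the RefSeq transcription start. Capitals mark matches to a STAT-type motif (TTCNNNGAA) or to an interferon regulatory factor-type motif (GAAA repeated after 2 further bases, any letters), each searched on both strands in the 250 bases before the start. The Socs1 stretch lies at chr16:10785537-10785786 on the minus strand, and the Socs3 stretch at chr11:117969452-117969616 on the minus strand, inside the deposited span of the gene; bases from the exon of a noncoding Socs3 transcript onward (GENCODE M21) were left out.
Socs1: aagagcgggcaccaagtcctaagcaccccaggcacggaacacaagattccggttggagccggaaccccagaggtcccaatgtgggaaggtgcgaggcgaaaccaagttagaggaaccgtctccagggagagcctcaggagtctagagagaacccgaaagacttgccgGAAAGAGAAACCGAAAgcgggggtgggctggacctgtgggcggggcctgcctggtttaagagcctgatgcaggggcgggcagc
Socs3: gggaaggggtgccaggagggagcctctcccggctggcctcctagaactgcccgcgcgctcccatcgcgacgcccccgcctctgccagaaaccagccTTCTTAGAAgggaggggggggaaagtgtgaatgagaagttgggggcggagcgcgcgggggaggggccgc
The capitals in Socs1 are 2 overlapping matches, GAAAGAGAAA at 83 to 74 bases and GAAACCGAAA at 77 to 68 bases before the start. The capitals in Socs3 are a single match, TTCTTAGAA, at 154 to 146 bases before the start. TTCNNNGAA occurred in 2306 of 32851 RefSeq promoter windows of that length (7.02%) and the GAAA repeat in 978 (2.98%). The second motif was chosen after the Socs1 sequence had been read. The RefSeq table held 4 of the 8 members, and the windows of the other two, Socs4 and Cish, held no match to either motif. A match is a description of the letters and not evidence of a bound site.

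Socs3 was lower in the bulk RNA of macrophage cultures given AC CM. It was the only family member whose difference passed the test, by edgeR's quasi-likelihood test with Benjamini-Hochberg adjustment over 17863 genes at an adjusted p of 0.05. Socs3 (ENSMUSG00000053113.3, chr11:117966079-117970047, minus strand, in the coordinates of the deposited table) had 756, 848 and 823 reads in AC CM libraries, against 1481, 1214 and 1215 reads in C CM libraries. As CPM this was 10.7, 11.0 and 10.3 in AC CM and 22.6, 17.7 and 18.1 in C CM. Every AC CM library lay below every C CM library, and the AC CM libraries were closer to each other than the C CM libraries were. Socs3 averaged 10.7 ± 0.324 CPM in AC CM and 19.5 ± 2.69 CPM in C CM (SD, n = 3 each), which is 45.2% lower in AC CM. The log2 fold change, AC CM over C CM, was -0.87 with a standard error (SE) of 0.12, a 95% confidence interval of -1.15 to -0.59 and an adjusted p of 0.00108. With any single library left out it was -0.93 to -0.75 and passed the test in 6 of 6 fits (adjusted p = 0.00107 to 0.00767). Without AC CM replicates 2 and 3 the log2 fold change was -0.87 and its adjusted p 0.0607, where the spread of the lone AC CM library was assumed equal to that among C CM libraries. For Socs3 the authors' deposited table gives -0.86 with an adjusted p of 2.73e-08. The neutrophil and monocyte marker sums were also lower in AC CM as given above, and their part in the Socs3 difference was not tested.

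Read against all genes, 1 lower call among 8 members is close to the background. Among the 17863 genes tested, 13.3% were called lower in AC CM (2371 genes) and 13.3% were called higher (2370 genes). No member was called higher by edgeR or limma-voom. DESeq2 called 1 higher (Socs4), and by edgeR 2 had an unadjusted p under 0.05 with a positive difference (Socs4, Socs5). On the lower side 3 members had an unadjusted p under 0.05 (Socs1, Socs3, Socs7). Groups did not overlap, with AC CM lower, for 3 members (Socs1, Socs3, Socs7), where the background was 22.1%, and with AC CM higher for 2 members (Socs4, Socs5), where it was 22.6%. Over the 8 members the median log2 fold change was -0.45, beside 0.00 over all genes tested.

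**Figure D1:**
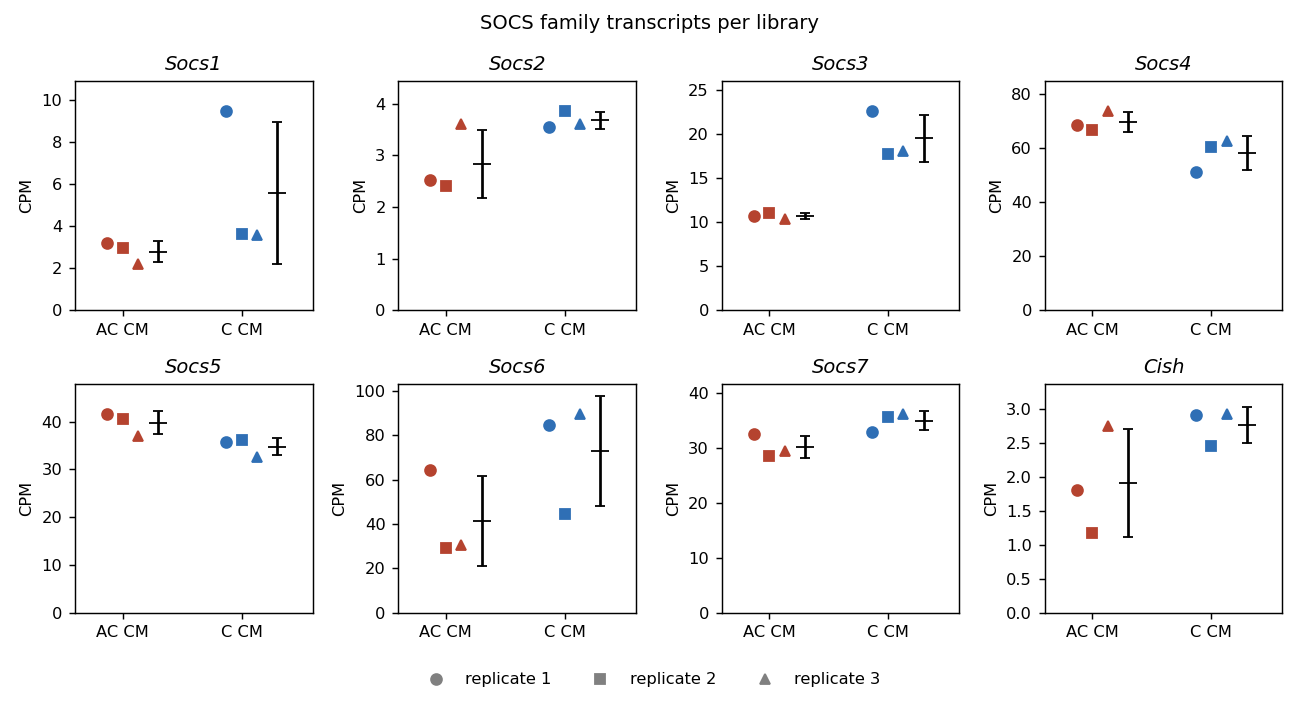
Level of each of the 8 SOCS family genes in CPM (vertical axis from 0, own scale per gene) in the 3 AC CM libraries (left) and the 3 C CM libraries (right); points are single libraries (circle, square and triangle for replicates 1, 2 and 3), and the line and bar beside them are the mean and SD. Socs3 was at 10.3 to 11.0 CPM in AC CM and 17.7 to 22.6 CPM in C CM, while for Socs1 C CM replicate 1, at 9.46 CPM, stood apart from all other libraries.

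Socs1, the strongest JAK inhibitor of the family together with Socs3, was lower in every AC CM library, but the size of its difference rested on 1 control library. Socs1 (ENSMUSG00000038037.4, chr16:10783808-10785536, minus strand) had 226, 227 and 176 reads in AC CM, against 620, 248 and 240 reads in C CM. These were 3.21, 2.93 and 2.21 CPM in AC CM and 9.46, 3.63 and 3.58 CPM in C CM. C CM replicate 1 was 2.62-fold above the mean of C CM replicates 2 and 3. Socs1 averaged 2.78 ± 0.517 CPM in AC CM and 5.55 ± 3.38 CPM in C CM, with a log2 fold change of -1.00 (SE 0.39, 95% confidence interval -1.90 to -0.09) that did not pass edgeR's test (adjusted p = 0.101). Without C CM replicate 1 it was -0.37 (adjusted p = 0.262). DESeq2 gave -1.00 with an adjusted p of 0.0240, and the authors' deposited table gives -0.99 with 0.0375. C CM replicate 1 was more than 2-fold above both other C CM libraries at 33 of the genes tested. It also stood apart over all genes, with a chi-square per gene of 61 and 62.7 against C CM replicates 2 and 3. This value was 27 between C CM replicates 2 and 3 and 29.6 to 36.8 between AC CM libraries. Without C CM replicate 1, edgeR called 2667 genes higher and 2356 lower, against 2370 and 2371 with all libraries. Map2k7, a MAP kinase kinase and the gene whose pattern was most like that of Socs1, had 21.4, 23.3 and 24.4 CPM in AC CM and 68.3, 27.2 and 25.7 CPM in C CM. Map2k7 falls outside the rule for named genes and was chosen after its values were seen.

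Socs2 and Cish, the remaining members best known for restraining STAT5-coupled receptors such as those of growth hormone and IL-2 family cytokines, had few reads and overlapped between the groups. Socs2 (ENSMUSG00000020027.18, chr10:95385362-95417180, minus strand) had 178, 186 and 287 reads in AC CM, against 233, 264 and 242 reads in C CM. As CPM these were 2.53, 2.40 and 3.60 in AC CM and 3.55, 3.86 and 3.61 in C CM. It averaged 2.84 ± 0.658 CPM in AC CM and 3.68 ± 0.162 CPM in C CM, a log2 fold change of -0.37 (SE 0.20, 95% confidence interval -0.83 to 0.09, adjusted p = 0.223 by edgeR). AC CM replicate 3 lay within the range of C CM, and the other two AC CM libraries below it.

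Cish (ENSMUSG00000032578.7, chr9:107296026-107302784, plus strand) had 127, 91 and 219 reads in AC CM, against 191, 168 and 196 reads in C CM. As CPM these were 1.80, 1.18 and 2.75 in AC CM and 2.91, 2.46 and 2.93 in C CM. AC CM replicate 3 again lay within the range of C CM, and the AC CM libraries spanned a 2.33-fold range. Cish averaged 1.91 ± 0.791 CPM in AC CM and 2.76 ± 0.268 CPM in C CM, a log2 fold change of -0.53 (SE 0.30, 95% confidence interval -1.22 to 0.15, adjusted p = 0.234 by edgeR). It was -0.89 without AC CM replicate 3 and -0.28 without AC CM replicate 2. Gm17041 and Gm17040, predicted genes on the opposite strand, share 479 and 261 exon bases with Cish. Whether counting used strand is not given in the sources used here, so reads of these genes and of Cish may not be separable. Gm17041 had 21, 17 and 44 reads in AC CM and 27, 44 and 37 reads in C CM.

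Socs4 and Socs5, a closely related pair known as regulators of epidermal growth factor receptor signalling, stood higher in every AC CM library than in any C CM library, by small amounts that did not pass edgeR's test. Socs4 (ENSMUSG00000048379.8, chr14:47276931-47296098, plus strand) had 4829, 5167 and 5886 reads in AC CM, against 3357, 4138 and 4208 reads in C CM. These were 68.5, 66.8 and 73.8 CPM in AC CM and 51.2, 60.5 and 62.8 CPM in C CM. It averaged 69.7 ± 3.66 CPM in AC CM and 58.2 ± 6.15 CPM in C CM, a log2 fold change of 0.26 (SE 0.09, 95% confidence interval 0.05 to 0.47, adjusted p = 0.0658). DESeq2 gave 0.26 with an adjusted p of 0.0447.

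Socs5 (ENSMUSG00000037104.8, chr17:87107679-87137583, plus strand) had 2940, 3136 and 2953 reads in AC CM, against 2338, 2469 and 2194 reads in C CM. As CPM these were 41.7, 40.5 and 37.0 in AC CM and 35.7, 36.1 and 32.7 in C CM, so the lowest AC CM library lay just above the highest C CM library. It averaged 39.8 ± 2.44 CPM in AC CM and 34.8 ± 1.82 CPM in C CM, a log2 fold change of 0.19 (SE 0.08, 95% confidence interval 0.00 to 0.38, adjusted p = 0.126 by edgeR).

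Socs6 and Socs7, members with long amino-terminal regions that are linked to receptor tyrosine kinase and insulin receptor substrate signalling, did not pass the test either. Socs6 (ENSMUSG00000056153.14, chr18:88665224-88927481, minus strand) had 4546, 2258 and 2422 reads in AC CM, against 5554, 3051 and 6023 reads in C CM. This was 64.5, 29.2 and 30.4 CPM in AC CM and 84.7, 44.6 and 89.9 CPM in C CM. One library of each group stood apart, so that AC CM replicate 1 exceeded C CM replicate 2, and the highest library was 2.21 times the lowest in AC CM and 2.02 times in C CM. Socs6 averaged 41.4 ± 20.1 CPM in AC CM and 73.1 ± 24.8 CPM in C CM, a log2 fold change of -0.82 with the widest interval of the family (SE 0.46, 95% confidence interval -2.02 to 0.38, adjusted p = 0.269 by edgeR). With single libraries left out it was -1.30 (without AC CM replicate 1, adjusted p = 0.0508) to -0.62, and without AC CM replicates 2 and 3 it was -0.19.

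Socs7 (ENSMUSG00000038485.5, chr11:97362551-97398542, plus strand) had 2282, 2200 and 2345 reads in AC CM, against 2157, 2430 and 2427 reads in C CM. Scaled for depth, these were 32.4, 28.4 and 29.4 CPM in AC CM and 32.9, 35.5 and 36.2 CPM in C CM, with no overlap but a gap of less than the SD of either group. Its log2 fold change was -0.21 (SE 0.09, 95% confidence interval -0.41 to -0.02, adjusted p = 0.104 by edgeR).

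**Figure D2:**
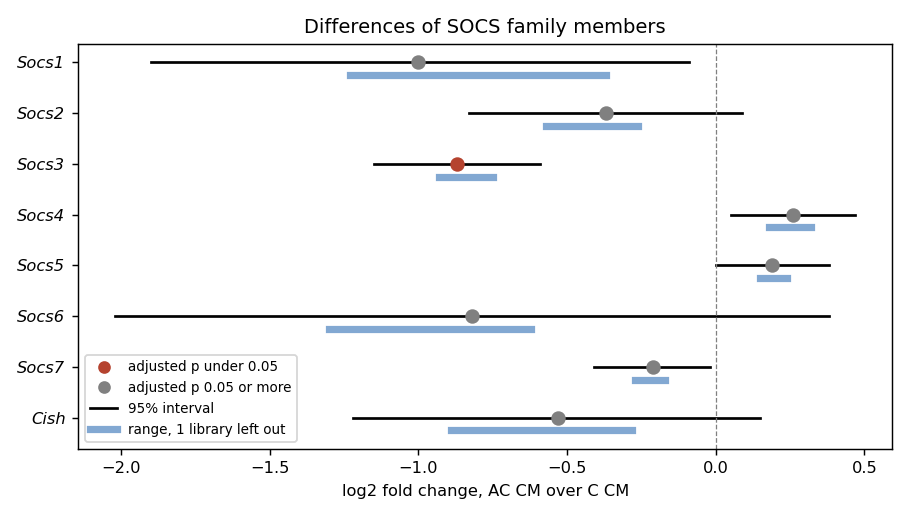
Log2 fold change, AC CM over C CM (horizontal axis), of the 8 SOCS family genes: points are edgeR estimates (red, adjusted p under 0.05), black lines their 95% confidence intervals and blue bars the range with single libraries left out. Only Socs3 is red, and the interval of Socs6, -2.02 to 0.38, is the widest.

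Per length of merged exons (RPKM, read counts scaled to exon length and library size), Socs4 had the highest mean of the family in both groups, clear of the others in AC CM but within the spread of Socs3 and Socs6 in C CM. Socs4 stood at 10.1 ± 0.532 RPKM in AC CM and 8.46 ± 0.894 RPKM in C CM, followed in AC CM by Socs5 at 6.20 ± 0.380 RPKM, against 5.43 ± 0.283 RPKM in C CM. Socs7 (4.14 ± 0.283 RPKM in AC CM, 4.80 ± 0.242 RPKM in C CM), Socs3 (3.69 ± 0.112 RPKM in AC CM, 6.74 ± 0.930 RPKM in C CM) and Socs6 (3.64 ± 1.77 RPKM in AC CM, 6.44 ± 2.18 RPKM in C CM) came next. By mean, the order in C CM after Socs4 was Socs3, Socs6, Socs5 and Socs7. Socs6 was within its spread of Socs7 and Socs3 in both groups, and of Socs4 and Socs5 in C CM. Socs1 was lower, at 0.957 ± 0.178 RPKM in AC CM and 1.91 ± 1.16 RPKM in C CM. Its deposited span of 1729 bases is shorter than the merged exons used for its length, and per kilobase of that span it was 1.61 in AC CM and 3.21 in C CM. Socs2 (0.298 ± 0.069 RPKM in AC CM, 0.386 ± 0.017 RPKM in C CM) and Cish (0.297 ± 0.123 RPKM in AC CM, 0.431 ± 0.0417 RPKM in C CM) were lowest by these lengths and did not differ from each other beyond their spread. The merged exons of Cish, 6419 bases, cover most of its deposited span, and a shorter length would raise its RPKM. The order of the members therefore depends on the lengths used.

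Socs3 took a smaller and Socs4 a larger share of the summed family level in every AC CM library than in any C CM library. Socs3 made up 11.6, 13.7 and 12.6% of the RPKM summed over the 8 genes in AC CM libraries, against 21.2, 19.5 and 17.7% in C CM libraries. Socs4 made up 31.2, 35.0 and 37.8% in AC CM, against 20.2, 28.0 and 25.7% in C CM. The Socs5 share was 20.3, 22.8 and 20.3% in AC CM and 15.1, 17.9 and 14.4% in C CM, while the Socs7 share overlapped, at 13.9 to 14.3% in AC CM and 12.3 to 15.6% in C CM. The sum itself was 32.0, 27.8 and 28.4 RPKM in AC CM and 36.9, 31.4 and 35.5 RPKM in C CM, so AC CM replicate 1 lay above C CM replicate 2. These shares rest on the same exon lengths, are descriptions of the same counts and were not tested. A larger share of 1 gene leaves smaller shares for the others.

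**Figure D3:**
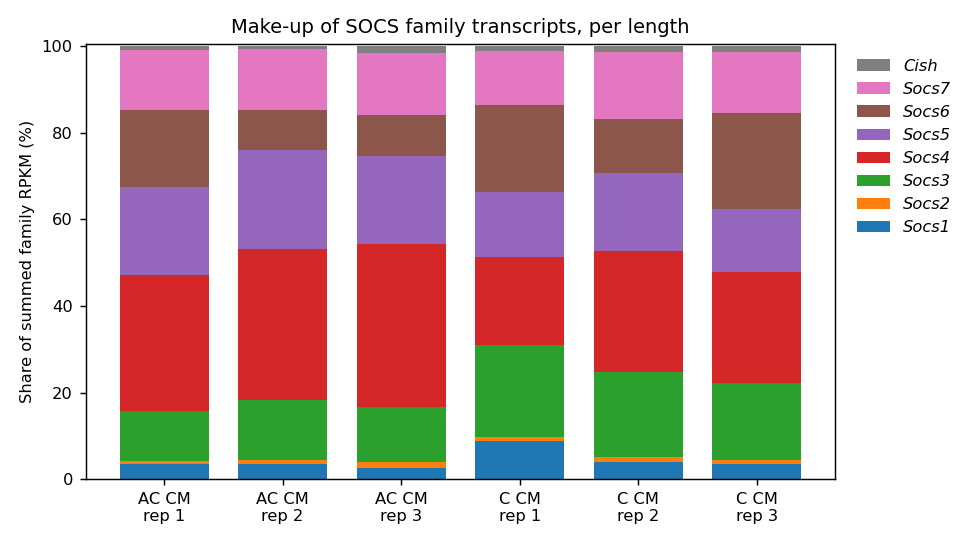
Share of each SOCS gene in the RPKM summed over the 8 genes (percent, vertical axis), for the 3 AC CM libraries (left) and the 3 C CM libraries (right). The Socs3 segment is 11.6 to 13.7% in AC CM and 17.7 to 21.2% in C CM, and the Socs4 segment is 31.2 to 37.8% in AC CM and 20.2 to 28.0% in C CM.

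The genes whose pattern over the 6 samples was most like that of Socs3, by the root mean square difference of centred log2(CPM + 1) values over 10274 genes of at least 5 CPM, were Plk1 (0.0315), Abhd15 (0.0325) and Atg2a (0.0423). Plk1, a mitotic kinase, had 10.1, 10.7 and 10.1 CPM in AC CM, against 22.1, 16.8 and 16.7 CPM in C CM. Atg2a, an autophagy lipid transfer protein, had 43.8, 47.9 and 43.3 CPM in AC CM, against 95.6, 76.2 and 77.9 CPM in C CM. Their log2 fold changes were -0.84 for Plk1 (SE 0.13), -0.84 for Abhd15 (SE 0.12) and -0.89 for Atg2a (SE 0.10), near that of Socs3. As for Socs3, the highest of the 6 libraries was C CM replicate 1 in each. The likeness is a description over 6 samples. Because the genes were picked for it over these same samples, the near fold changes and the shared highest library follow from the choice.

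Several of the ligands whose signals SOCS proteins restrain had next to no reads. Among 23 cytokine genes 12 were tested, of which 1 rose, 2 fell and 9 did not pass, with a median log2 fold change of -0.46. As background for this and the lists below, 13.3% of all genes tested were called higher in AC CM and 13.3% lower. Il15, which supports natural killer cells, fell (12.4 ± 0.164 CPM in AC CM, 19.2 ± 1.62 CPM in C CM, log2 fold change -0.63, SE 0.11, edgeR adjusted p = 0.00246). Il27, a gp130 cytokine subunit, rose by 0.84 on the log2 scale (adjusted p = 0.0169), a call lost without AC CM replicate 1 (adjusted p = 0.0602). Clcf1, a further gp130 ligand, fell by 0.68 (adjusted p = 0.0271), and this call was lost when any library other than C CM replicate 2 was left out (adjusted p = 0.0554 to 0.0956). The 11 cytokine genes not tested had at most 19 reads in any library, and 4 of them were at 0 throughout. Il6 and Ifnb1 had 0 to 12 reads each, Ifng 0 to 19, and Csf2 had 0 in every library.

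Of 12 genes for receptors of the gp130 family, the receptors at which SOCS3 acts, 10 were tested, 4 fell, 1 rose and 5 did not pass (median log2 fold change -0.42). Il6ra, the IL-6 binding chain, had 139, 144 and 146 CPM in AC CM, against 274, 275 and 265 CPM in C CM (log2 fold change -0.92, SE 0.06, edgeR adjusted p = 1.36e-05). Csf3r, the G-CSF receptor, which SOCS3 binds, averaged 85.7 ± 2.89 CPM in AC CM and 154 ± 12.7 CPM in C CM (log2 fold change -0.85, adjusted p = 9.05e-05). Lifr, the leukaemia inhibitory factor receptor, fell by 0.92 on the log2 scale (adjusted p = 0.000176) and Il27ra by 2.33 (adjusted p = 0.00827), and Il12rb2 rose by 0.73 (adjusted p = 0.00795). Il27ra falls outside the rule for named genes and was chosen after its values were seen. Without C CM replicate 3 the list had 2 higher calls. Il6st, which encodes the shared gp130 subunit itself, averaged 145 ± 3.73 CPM in AC CM and 140 ± 11.0 CPM in C CM (log2 fold change 0.05, adjusted p = 0.657). Csf3r is also high in the neutrophil lineage, whose markers were lower in AC CM as given above, and the part of that difference in these values was not tested.

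Receptors of interferons, at which SOCS1 acts, and of the IL-10 family gave 2 higher, 2 lower calls and 5 not passed among 9 tested of 10 (median 0.20). Il10ra, the IL-10 binding chain, had 71.9, 80.4 and 77.5 CPM in AC CM, against 173, 157 and 161 CPM in C CM (log2 fold change -1.10, SE 0.07, edgeR adjusted p = 1.62e-05). Il10rb, its shared partner, rose by 0.30 (adjusted p = 0.00464). Ifnar2 fell by 0.23 (adjusted p = 0.0166), a call lost without any 1 of the 3 AC CM libraries (adjusted p = 0.0612 to 0.0831). Ifnar1 rose by 0.20 (adjusted p = 0.0349), a call lost without any library other than C CM replicate 1 (adjusted p = 0.0535 to 0.139). Ifngr1, the interferon gamma binding chain, averaged 477 ± 13.6 CPM in AC CM and 442 ± 10.5 CPM in C CM and did not pass (adjusted p = 0.189).

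Among receptors of the common beta and gamma chains and the homodimeric receptors, on which CISH, SOCS1 and SOCS2 act, 16 of 20 were tested, 5 fell, 1 rose and 10 did not pass (median -0.28). Csf2rb, the signalling chain for GM-CSF, had 104, 106 and 103 CPM in AC CM, against 266, 261 and 250 CPM in C CM (log2 fold change -1.31, SE 0.06, edgeR adjusted p = 2.51e-06). Csf2rb2, a near-identical paralog, had a log2 fold change of -1.18, and reads may be split between the pair. Il2rb averaged 1.76 ± 0.0955 CPM in AC CM and 7.03 ± 0.287 CPM in C CM (log2 fold change -2.00), and Il21r rose by 0.45 (adjusted p = 0.00284). The B, T and NK cell markers summed to 11.1 to 12.0 CPM in AC CM and 30.6 to 36.5 CPM in C CM. Their part in the Il2rb difference was not tested. Without AC CM replicate 1, AC CM replicate 2, C CM replicate 2 or C CM replicate 3 the list had 3 lower calls.

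Receptor tyrosine kinases and insulin receptor substrates, the signalling context of SOCS6 and SOCS7, gave 7 lower calls and 5 members not passed among 12 (median -0.52). Csf1r, the receptor for M-CSF in the culture medium, averaged 2020 ± 84.0 CPM in AC CM and 3320 ± 89.9 CPM in C CM (log2 fold change -0.72, SE 0.06, edgeR adjusted p = 4.41e-05). Kit, a reported SOCS6 target and mast cell and progenitor marker, fell by 2.14 on the log2 scale, Pdgfrb by 0.56 and Igf1r by 0.51. Marker sums of mast cells, dendritic cells and fibroblasts were also lower in AC CM (fibroblast sum 3230 to 3330 CPM in AC CM, 4030 to 5070 CPM in C CM). Kit and Pdgfrb belong to such lists themselves, and Kit made up most of the mast cell and basophil sum. Of the others in that list, Prss34 fell, Mcpt8 and Cpa3 did not pass and Fcer1a was at 0. The part of these cell types in the calls was not tested. Without C CM replicate 1 the list had 1 higher call.

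Of the 4 Janus kinases, Tyk2 fell and 3 did not pass (median 0.02). Tyk2 had 98.5, 97.6 and 99.1 CPM in AC CM, against 144, 116 and 127 CPM in C CM (log2 fold change -0.39, SE 0.08, edgeR adjusted p = 0.00894). Jak2, which both SOCS1 and SOCS3 inhibit, averaged 85.0 ± 1.76 CPM in AC CM and 74.3 ± 7.61 CPM in C CM (log2 fold change 0.19, adjusted p = 0.125). Without C CM replicate 1 the list had 1 higher and 2 lower calls, and with upper quartile scaling or a stricter filter on low counts 2 lower calls.

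Of 6 STAT genes listed, 3 fell and 3 did not pass (median -0.27). Stat3, the main factor upstream of Socs3, had 129, 135 and 128 CPM in AC CM, against 187, 184 and 183 CPM in C CM, with no overlap and little spread in either group (log2 fold change -0.50, SE 0.06, edgeR adjusted p = 0.000382). Stat4 was scarce, at 2.54 ± 0.0795 CPM in AC CM and 4.87 ± 0.219 CPM in C CM (log2 fold change -0.94, adjusted p = 0.00243). Of the STAT5 pair upstream of Cish and Socs2, Stat5b fell by 0.28 (adjusted p = 0.0453), a call lost without any 1 of the AC CM libraries or C CM replicate 2 (adjusted p = 0.073 to 0.152). Stat5a averaged 25.9 ± 2.99 CPM in AC CM and 30.9 ± 3.97 CPM in C CM and did not pass (adjusted p = 0.166). Without C CM replicate 1 the list had 1 higher call. Stat5a and Stat5b are closely similar in sequence, so reads may be shared.

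**Figure D4:**
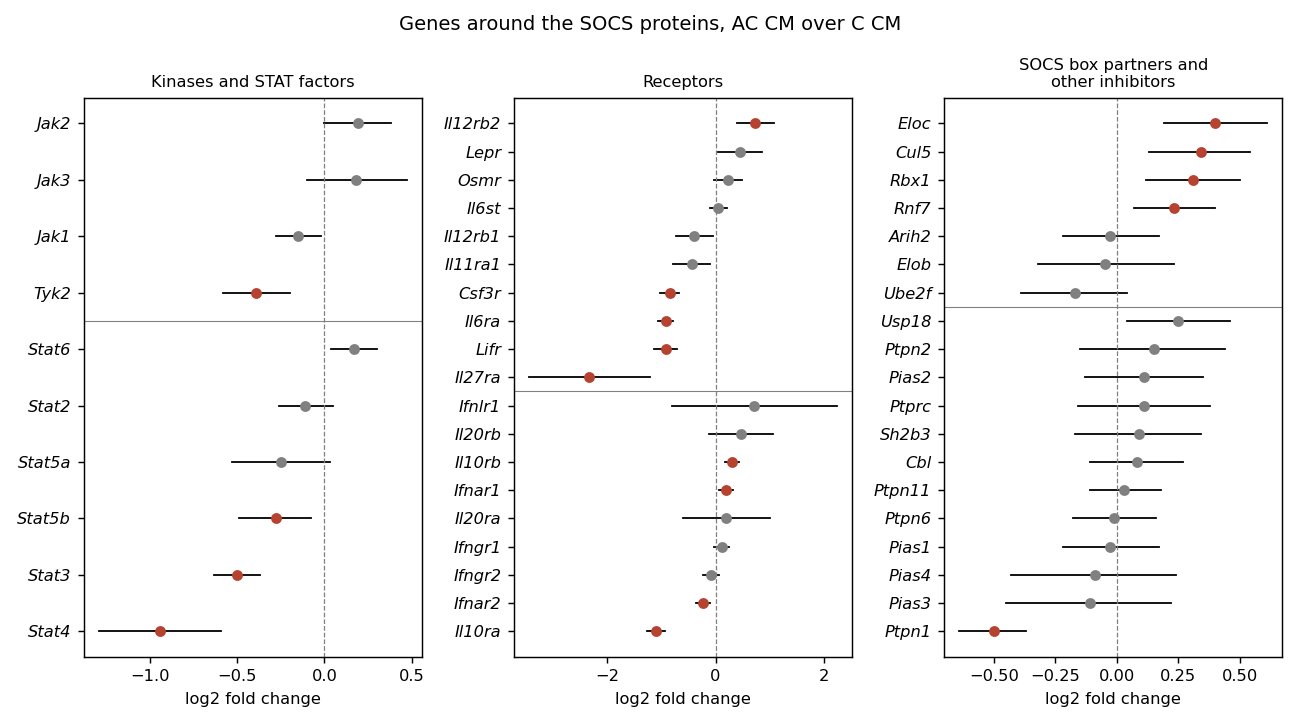
Log2 fold change, AC CM over C CM (horizontal axis), with 95% confidence intervals for the tested JAKs and STATs (left), gp130, interferon and IL-10 family receptors (middle) and SOCS box partners and other inhibitors (right), red where the adjusted p was under 0.05. Il6ra (-0.92), Il10ra (-1.10) and Stat3 (-0.50) lie below 0, and Il6st (0.05) and Jak2 (0.19) did not pass the test.

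The ubiquitin ligase partners of the SOCS box gave 4 higher calls and 3 members not passed among 7 (median 0.23). Eloc, elongin C, which contacts the SOCS box, had 51.3, 46.0 and 46.3 CPM in AC CM, against 32.4, 38.5 and 38.0 CPM in C CM (log2 fold change 0.40, SE 0.09, edgeR adjusted p = 0.0126). Cul5, the cullin scaffold, averaged 45.6 ± 3.83 CPM in AC CM and 36.1 ± 2.44 CPM in C CM (log2 fold change 0.34, adjusted p = 0.025). The RING proteins Rbx1 (log2 fold change 0.31, adjusted p = 0.0268) and Rnf7 (0.23, adjusted p = 0.0397) rose as well. Each of these calls was lost without some single library, and the list kept 0 to 2 higher calls without C CM replicate 2 or 3 or any 1 AC CM library. Eloc lost its call without AC CM replicate 1 (adjusted p = 0.0597), and Cul5 without AC CM replicate 1, AC CM replicate 3 or C CM replicate 2 (adjusted p = 0.0837 to 0.109). Rbx1 lost it without any library other than C CM replicate 1 (adjusted p = 0.0682 to 0.106), and Rnf7 without any AC CM library or C CM replicate 3 (adjusted p = 0.0761 to 0.153).

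Of 27 other genes for SOCS box proteins 20 were tested, 5 fell, 1 rose and 14 did not pass (median -0.12). Asb2, an ankyrin repeat substrate receptor known from haematopoietic cells, fell (4.19 ± 0.315 CPM in AC CM, 10.9 ± 1.29 CPM in C CM, log2 fold change -1.38, SE 0.14, edgeR adjusted p = 0.000205). Wsb1, a WD repeat member, rose by 0.52 on the log2 scale (adjusted p = 0.000366). Neurl2 fell by 0.69 (adjusted p = 0.00588) and Asb13 by 0.47 (adjusted p = 0.0139), the call of Asb13 being lost without AC CM replicate 1 or 2 (adjusted p = 0.0564 and 0.055). The list had 3 lower calls without AC CM replicate 2, AC CM replicate 3 or C CM replicate 2.

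Of 12 other inhibitors of JAK-STAT signalling, the PIAS proteins, phosphatases and adaptors, 1 fell and 11 did not pass (median 0.06). Ptpn1, a phosphatase that acts on JAK2 and TYK2, had 197, 192 and 198 CPM in AC CM, against 289, 277 and 265 CPM in C CM (log2 fold change -0.50, SE 0.06, edgeR adjusted p = 0.000448). Its groups did not overlap, as for Socs3.

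Lists of genes known to respond to STATs or interferons are described next. STAT3-responsive genes gave 2 higher and 2 lower calls and 8 not passed among 12 (median -0.22). Saa3, an acute phase protein, rose by 1.18 on the log2 scale (edgeR adjusted p = 0.000313), and Bcl3, an NF-kB cofactor, fell by 1.10 (adjusted p = 0.00109). Etv3, a repressor induced by IL-10, rose by 0.36 (adjusted p = 0.00245), and Junb fell by 0.58 (adjusted p = 0.0202), a call lost without AC CM replicate 2 or 3 (adjusted p = 0.0589 and 0.0729).

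STAT5-responsive genes gave 5 higher and 4 lower calls and 3 not passed among 12 (median 0.31). Ccnd1, cyclin D1, had 653, 638 and 642 CPM in AC CM, against 100, 118 and 103 CPM in C CM (log2 fold change 2.59, SE 0.08, edgeR adjusted p = 3.4e-07). Bcl6 rose by 0.89 (adjusted p = 6.17e-05) and Ccnd2 by 0.60 (adjusted p = 0.000461). Gfi1, which is also expressed in granulocyte precursors, fell by 1.82 (adjusted p = 0.00419). Several of these genes respond to growth factor signals other than STAT5, so the list's name is only a label, and 2 lower calls were left without AC CM replicate 1, AC CM replicate 3 or C CM replicate 2.

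Genes responsive to interferon gamma gave 10 lower calls, 1 higher and 5 not passed among 16 (median -0.85). Ciita, the MHC class II transactivator, had 0.710, 0.259 and 0.376 CPM in AC CM, against 12.5, 10.5 and 11.5 CPM in C CM (log2 fold change -4.69, SE 0.32, edgeR adjusted p = 2.44e-05). The guanylate-binding protein genes Gbp7 and Gbp3 fell by 1.18 and 1.03, and Cd274, which encodes PD-L1, by 0.91. Gbp genes are alike in sequence and may share reads. The 1 higher call was Psmb8, named after its values were seen; its log2 fold change was 0.23 with an adjusted p of 0.0463, and it was lost without any library other than C CM replicate 1 (adjusted p = 0.107 to 0.152). Dendritic cell markers were lower in AC CM as given above, and their part in the Ciita difference was not tested.

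Genes responsive to type I interferon gave 5 lower calls, 1 higher and 6 not passed among 12 (median -0.11). Xaf1 rose by 1.11 on the log2 scale (edgeR adjusted p = 2.59e-05), while Ifit2 fell by 0.83 (adjusted p = 0.000286), Rsad2 by 0.48 (adjusted p = 0.00542) and Ifit3 by 0.44 (adjusted p = 0.00227). Ifit3 has a near-identical copy, Ifit3b, with which it may share reads. Without AC CM replicate 1 or 2 the list had 3 lower calls, and without C CM replicate 1 it had 2 higher calls.

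Genes responsive to STAT6, which SOCS1 restrains in IL-4 signalling, gave 6 lower calls, 2 higher and 2 not passed among 10 tested of 13 (median -1.57). Chil3 fell by 2.20 (edgeR adjusted p = 3.6e-06), Mgl2 by 2.12, Irf4 by 1.31 and Clec10a by 0.98. Mrc1, the mannose receptor, rose by 0.54 (adjusted p = 0.00349), and Arg1, arginase, by 3.14 (adjusted p = 0.0296). Mrc1 and Arg1 are named after their values were seen. Arg1 had 1.49, 5.43 and 8.32 CPM in AC CM, against 0.976, 0.263 and 0.493 CPM in C CM, and lost its call without AC CM replicate 2 or any 1 C CM library (adjusted p = 0.0547 to 0.11). It is abundant in liver, and its AC CM libraries had the same order as for Alb, given above, whose part in the call was not tested. Without AC CM replicate 2 or any 1 C CM library the list had 1 higher call. Chil3 is also a monocyte marker, and the monocyte sum was lower in AC CM as given above.

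**Figure D5:**
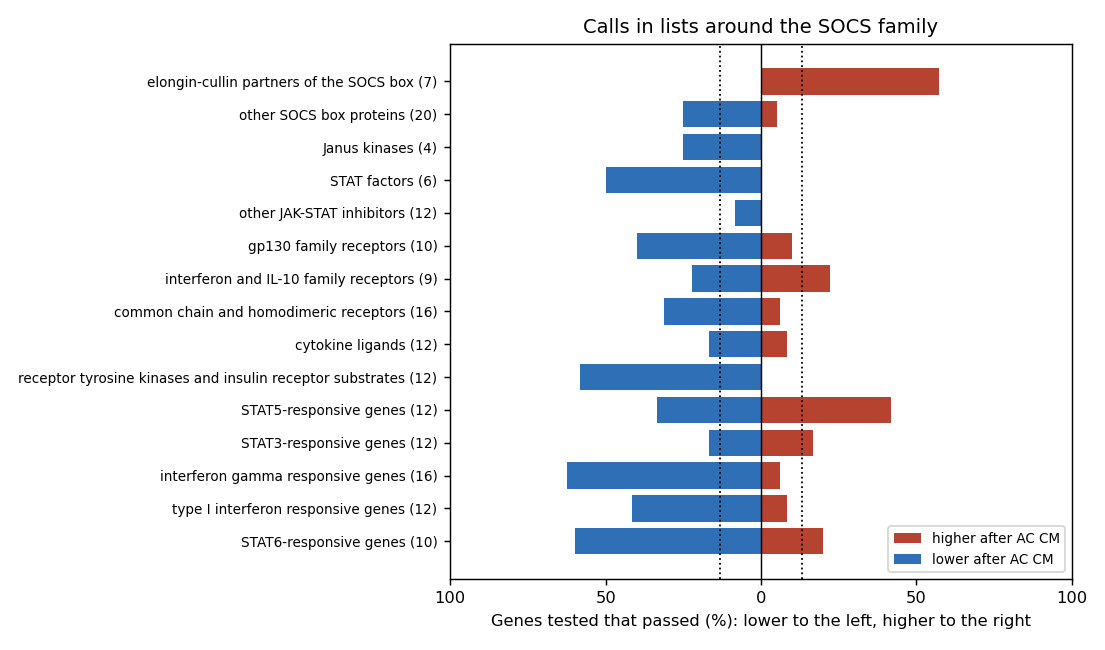
Percent of tested genes called higher and lower in AC CM than in C CM (adjusted p under 0.05, edgeR) in each pathway list; the number of genes tested is in brackets, bars to the right are higher and bars to the left lower, and dotted lines mark the 13.3% of all tested genes called in each direction. The interferon gamma list has 10 lower calls of 16, and the SOCS box partners have 4 higher calls of 7.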

How the data were processed

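Libraries of mRNA from 6 macrophage samples were sequenced on an Illumina instrument, per the labels' protocols, and grouped by the treatment in each label. The authors deposited raw read counts, 1 whole number per gene and library. The normalized signal columns the authors deposited equal those counts divided by a constant per sample and were not used. The log2 fold changes and p-values that the authors deposited are their own comparison, quoted only as theirs. Tools named in the submitters' processing notes are R 3.4.3, DESeq2 1.18.1, HISAT2 2.1.0 and fastp 0.17.1, with no role stated. Which counter, strand setting, build and annotation made the table is not given in the sources used here. Of 52403 gene identifiers matched to GENCODE M21, 95.2% had the same position as there. Those of Socs1, Socs4 and Socs5 differed.

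Robust quasi-likelihood tests (edgeR 4.0.16 under R 4.3.3) of AC CM against C CM were run on counts after filterByExpr and TMM scaling, with Benjamini-Hochberg adjustment over 17863 genes. The procedure was tested on simulated data in which every gene had the same dispersion, so that test does not cover genes or libraries with unequal spread. Between 65630784 and 80105872 reads per library leave the members with 91 to 6023 reads each. How far counting limits their precision was not tested. Values after ± are SD. RPKM used merged M21 exons. No pair of libraries within a group was a copy (chi-square per gene 27 or more). Pairs of an AC CM and a C CM library were not compared in this way. Tables and figures used Python 3.11.15. Alternatives were DESeq2 1.42.0, limma 3.58.1 voom, other scalings and filters, counts divided by 4, the 20 most counted genes left out, the replicate number as a block, and libraries left out. From each list up to 4 called genes with the smallest p are named, with Il6st, Ifngr1, Jak2, Stat3, Stat5a, Stat5b, Csf1r, Csf2rb, Cul5 and Eloc. The B, T and NK cell markers summed to 11.1 to 12.0 CPM in AC CM and 30.6 to 36.5 CPM in C CM, and chondrocyte markers to 108 to 111 CPM in AC CM and 72.1 to 84.1 CPM in C CM. Erythroid and megakaryocyte markers summed to 477 to 509 CPM in AC CM and 303 to 365 CPM in C CM, nearly all of it Pf4 (468 to 501 CPM in AC CM, 274 to 327 CPM in C CM), while 3 others fell (Itga2b, Gp9 and Ppbp) and the list's median log2 fold change was -2.24. The members, lists and rules were chosen with earlier results of these data known. A gene that the rule takes is not reported here, and its list is counted without it.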

Additional observations from a re-analysis of the deposited data

How the results depend on the processing

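No fold change of the 8 members or of the 82 other genes followed reversed in any alternative run. Socs3 was lower in AC CM under all 17 (log2 fold change -0.93 to -0.75) and kept its edgeR call except without AC CM replicates 2 and 3 (-0.87, adjusted p = 0.0607). DESeq2 alone added calls for Socs1 (-1.00, adjusted p = 0.0240) and Socs4 (0.26, adjusted p = 0.0447), giving 1 member higher and 2 lower, and 0 were called lower without AC CM replicates 2 and 3. Over all genes, calls numbered 1511 to 2667 higher and 1647 to 2356 lower with single libraries left out, and 510 higher and 764 lower without AC CM replicates 2 and 3, a fit with a lone AC CM library; the cause of these lower counts beyond fewer samples was not tested. Of the 78 other genes followed that were called, 43 lost their call in that fit. Of 510 list counts over the alternatives, 86 moved by over 1.5 times.

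The labels number both groups alike, but same-numbered samples did not deviate together (correlations -0.062, 0.031 and 0.038, other pairs -0.081 to 0.053). With the replicate block, 2216 genes were called higher and 2181 lower, Socs3 was at -0.86 (adjusted p = 0.00344), Socs1 at -0.86 (adjusted p = 0.0525) and Socs6 at -0.85 (adjusted p = 0.117), and 6 of the other genes lost their call.

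The intervals of Socs1, Socs2, Socs6 and Cish are wide (SE 0.39, 0.20, 0.46 and 0.30), so differences of Socs2, Socs6 and Cish are not shown to be absent. With counts divided by 4 and rounded, the SE of Socs2 was 0.21 and that of Cish 0.29. Such division keeps the relative spread among libraries and adds no noise of shallower sequencing, so it cannot show whether depth limits these intervals.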
